A study of Mus musculus with 4 samples.

Results

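The genes described here encode proteins of the cytosolic ribosome, measured by bulk RNA-seq in microglia that were taken from the mouse corpus callosum on postnatal day 7. They are the protein-coding genes of the deposited expression table whose symbol is Rpl or Rps followed by a number, with an optional suffix letter or digit. This rule takes 78 of 21044 genes, 47 of the large and 31 of the small subunit, and it uses no measured value. It leaves out the stalk proteins (Rplp0, Rplp1, Rplp2), Rpsa, Fau, Rack1 and Rpl36al, and it takes in paralogues such as Rpl22l1, Rps27l, Rpl39l, Rpl3l and Rpl7l1.

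The libraries comprised 2 from Lag3cKO-Cx3 mice (genotype label ko, here cKO) and 2 from Lag3fl/fl mice (genotype label wt, here WT). LAG3 is an inhibitory receptor known mainly from T cells. The Cx3 of the name is read as a Cx3cr1 driver, which is active in microglia and in other cells of the myeloid lineage, and both groups carry floxed Lag3. The sex of the pups, the number pooled in a library and the Cre allele are not given in the sources used here, so a p-value reflects just how far these libraries lie apart, which may be technical. Where 4 values are given, replicate 1 comes before replicate 2 within each group.

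A ribosome is built from a small subunit, which reads the mRNA, and a large subunit, which joins the amino acids. Each ribosomal protein is in most cases present once per ribosome, and cells make them in step, partly because their mRNAs begin with a run of pyrimidines (the 5′ terminal oligopyrimidine, or TOP, motif) that places their translation under control of the kinase mTORC1. Microglia, the macrophages of the brain, are known to raise protein synthesis through this kinase when activated.

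The genes share sequence at their start sites that the symbol rule did not use. RefSeq promoters on GRCm38.p6 were matched by symbol for 59 of the 78 genes. A start that opens with C followed by at least 4 pyrimidines was annotated for 20.3% of the 59, against 3.01% of all 27025 genes with a promoter in the same table. Between 50 bases before and 50 bases after the start, CTTTC on the sense strand was found in 50.8% of the ribosomal protein genes and 14.6% of all genes, TCTTTC, which contains it, in 27.1% and 4.53%, and CTTCC in 47.5% and 22.2%. CGGAAG on either strand was found in 40.7% of the ribosomal protein genes and 10.4% of all. The windows of 30 bases below are shown because the values further down turn on these genes. Each runs 5′ to 3′ with the annotated start at base 16, and capitals mark the longest pyrimidine run of at least 5 bases.
Rpl22l1, chr3:28805493-28805522 (plus strand): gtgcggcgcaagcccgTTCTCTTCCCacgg
Rpl22, start 1, chr4:152324421-152324450 (plus strand): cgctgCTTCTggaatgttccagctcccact
Rpl22, start 2, chr4:152325711-152325740 (plus strand): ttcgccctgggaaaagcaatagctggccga
Rps2, chr17:24720048-24720077 (plus strand): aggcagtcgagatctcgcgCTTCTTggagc
Rps23, chr13:90923107-90923136 (plus strand): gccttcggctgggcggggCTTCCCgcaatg
Rpl4, chr9:64173372-64173401 (plus strand): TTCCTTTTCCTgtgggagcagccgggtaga
Rps6, chr4:86857353-86857382 (minus strand): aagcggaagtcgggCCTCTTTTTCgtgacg
Rpl38, chr11:114668565-114668594 (plus strand): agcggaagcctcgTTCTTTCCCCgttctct
Rpl22l1, Rps6 and Rpl38 have a pyrimidine run that reaches or adjoins the annotated start, Rps2 and Rps23 have a shorter run a few bases downstream, and Rpl4 has its run upstream. RefSeq lists 2 starts for Rpl22. The window of start 1 holds a run of 5 pyrimidines upstream of the start, and that of start 2 holds none of at least 5 bases. The annotated starts were taken as given, and the libraries do not measure them.

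Total counts were 16770162 and 14645187 in the cKO libraries and 15855913 and 14973059 in the WT libraries. Lag3 had 35.3 and 17.1 CPM (counts scaled to a common library size by TMM) in cKO libraries, against 386 and 682 CPM in WT libraries. The 12 microglial markers, among them Csf1r and P2ry12, summed to 31559 and 29782 CPM in cKO libraries and to 30169.9 and 33362 CPM in WT libraries, and the list includes Cx3cr1 itself, at 3396 and 3027 against 6433 and 6542 CPM. The second cKO library stood apart. It had 12787 genes with a count, against 14840 to 15899 in the other 3. It had 289.8 CPM of Xist, which is transcribed from the inactive X chromosome, against 6.95 in cKO replicate 1 and 0 in WT libraries. It had no count of the Y-linked genes Uty and Eif2s3y, which had 39.8 and 72.6 CPM in cKO replicate 1. In WT libraries Uty had 31 and 47.2 CPM and Eif2s3y had 68.9 and 62.5 CPM. By these genes the groups were not matched for sex. Astrocyte markers summed to 239 and 524 CPM in cKO libraries and to 225 and 183 CPM in WT libraries. In 6 of 9 tested markers both cKO values exceeded both WT values, which is 66.7%, against 15.8% of all genes tested. Neutrophil and monocyte markers summed to 41.9 and 200.3 CPM in cKO libraries and to 59.2 and 19.5 CPM in WT libraries, with 3 of 8 above (Ngp, Cxcr2 and Ccr2). Cxcr2, a chemokine receptor of neutrophils, had 10.4 and 16.8 CPM in cKO libraries, against 2.36 and 2.86 CPM in WT libraries, and Ngp, a neutrophil granule protein, had 2.2 and 41.7 CPM in cKO libraries, against 0 and 0.341 CPM in WT libraries. Ly6g was at 0 in all libraries but cKO replicate 2, and Elane and Mpo were at 0 in all but WT replicate 1. Oligodendrocyte markers summed to 195 and 133 CPM in cKO libraries and to 117 and 114 CPM in WT libraries, with 2 of 6 above. Their part in the values below was not tested, and values without either cKO library are given where a count or call moves.

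The levels of the ribosomal protein genes spanned several orders of magnitude within each library. FPKM (the authors' unit, scaled by gene length and library) averaged from 0.00907 for Rpl3l to 594 for Rpl4 over the 4 libraries, with a median of 17.3. Of the 78 genes, 12 averaged at least 100 FPKM, 34 lay between 10 and 100, 27 between 1 and 10, and 5 below 1. Large and small subunit genes had medians of 16.1 and 18.7 FPKM. The gene lengths implied by the FPKM had a median of 1770 bases, against 756 bases for the main mRNAs in GENCODE.

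**Figure D1:**
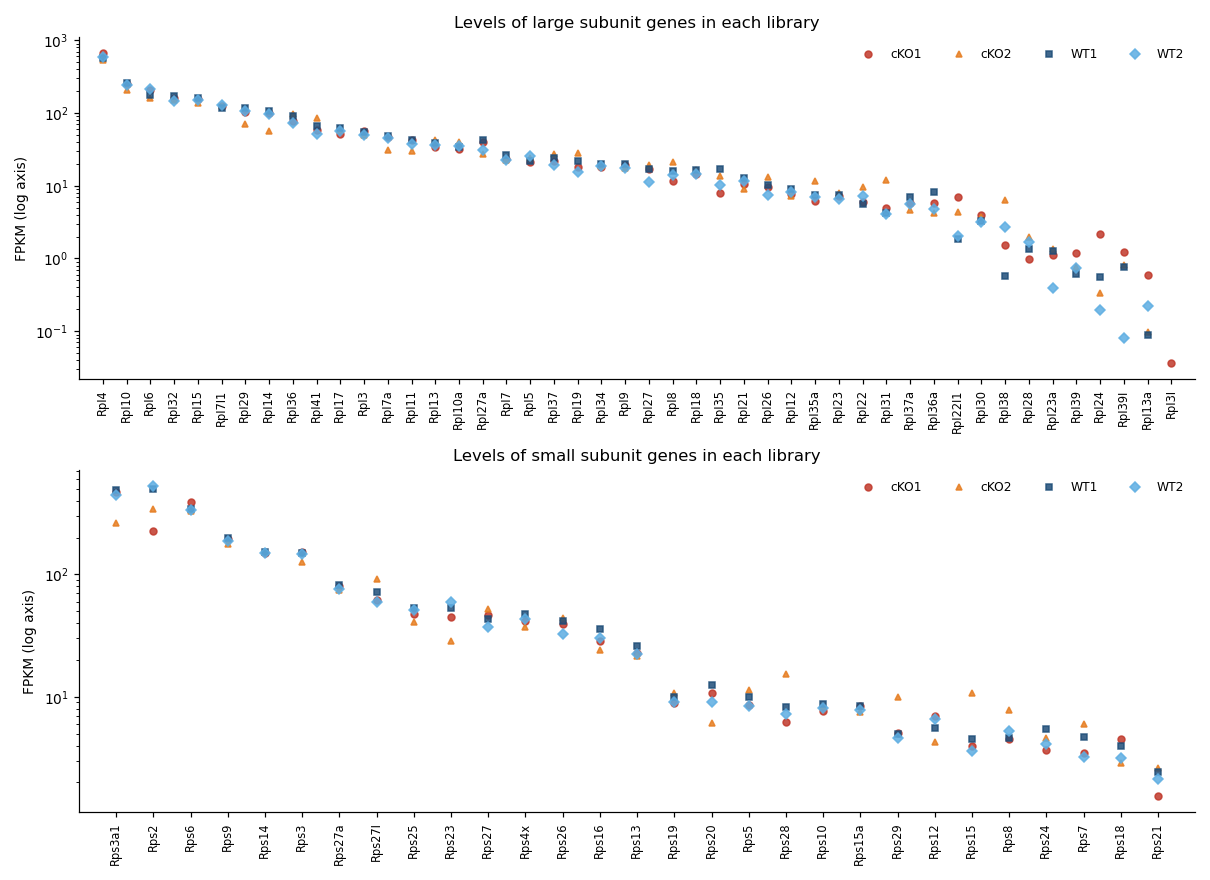
FPKM on a log axis of 75 ribosomal protein genes in each library, for the large subunit (upper panel) and the small subunit (lower panel), ordered by mean level, with values of 0 not drawn. The 4 libraries keep nearly the same order of genes from Rpl4 (mean 594 FPKM) down to Rpl3l, and the points of a gene spread further apart at low levels, as for Rpl39l and Rpl13a.

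Rpl4, a large subunit protein of the peptide exit tunnel, had 675 and 532 FPKM in cKO libraries and 575 and 595 FPKM in WT libraries. Rps3a1, which the mouse uses as its Rps3a gene, had 473 and 263 FPKM in cKO libraries and 492 and 449 FPKM in WT libraries. Rps6, the small subunit protein phosphorylated downstream of mTORC1, had 390.2 and 328 FPKM in cKO libraries and 343 and 336 FPKM in WT libraries. For these 3 genes the groups overlapped, and replicate 2 was the lower cKO library. Rps2 (399 FPKM) and Rpl10 (243 FPKM) completed the 5 highest means. At the other end stood Rpl39 (0.832 FPKM), Rpl24 (0.805 FPKM), Rpl39l (0.72 FPKM), Rpl13a (0.25 FPKM) and Rpl3l, the paralogue of Rpl3 best known from muscle, which was listed at 0 in 3 libraries. Rpl13a, a large subunit protein also known from the interferon-responsive GAIT complex in human myeloid cells, had 21 and 3 counts in cKO libraries and 3 and 7 counts in WT libraries. Rpl24 had 37 and 5 counts in cKO libraries and 9 and 3 counts in WT libraries.

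Among these low values, those of Rpl39, Rpl24 and Rpl13a concern genes whose products are in the ribosome of every cell. Rpl39l and Rpl3l are paralogues known mainly from other tissues. The low values sit beside features of the transcripts that bear on counting. Ribosomal protein genes have many processed pseudogenes, and the settings of the authors' counting are not given. Across the 78 genes, a median of 56.7% of the 50-base stretches of the main mRNA also occurred in a transcript of another gene, and for 47 genes at least 50% did. The share was 57.4% for Rpl13a, 81.7% for Rpl24, 16.5% for Rpl39 and 0% for Rpl39l. Over 77 genes with counts, mean CPM had a Spearman rho of 0.09 with this share, of 0.39 with mRNA length and of -0.049 with GC content. These are descriptions across genes that share the same 4 libraries. Levels are uncertain for genes with near-identical copies, and whether shared sequence or length lies behind the low values was not tested.

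All ribosomal protein genes together held under 1% of the counts. Their share was 0.89% and 0.799% in cKO libraries and 0.928% and 0.906% in WT libraries, lower in both cKO libraries by a difference of -0.0719 percentage points, with an exact two-sided permutation p = 0.333, the smallest that 2 against 2 libraries can give. Without Rps2 the share was 0.849% and 0.737% in cKO libraries and 0.837% and 0.809% in WT libraries, which overlap, and the exact permutation p was 1. Fewer cells of a type and less RNA per cell cannot be told apart in bulk libraries. The 7 genes with the most counts held over 50% of the counts of the group, and the 9 with the most held 62.8% and 59.6% in cKO libraries and 62% and 64.3% in WT libraries.

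The subunits differed in how this share was divided. Small subunit genes took 0.381% and 0.356% of counts in cKO libraries and 0.436% and 0.423% in WT libraries, and the groups did not overlap. Of their summed CPM, Rps2 held 409 of 3800 and 613 of 3472 in cKO libraries. In WT libraries Rps2 held 916 of 4407 and 990 of 4313. Without Rps2 the small subunit shares of the groups overlapped. Large subunit genes took 0.509% and 0.443% in cKO libraries and 0.491% and 0.483% in WT libraries, and the groups overlapped. The ratio of small to large subunit counts was 0.75 and 0.804 in cKO libraries and 0.888 and 0.875 in WT libraries, a mean of 0.777 ± 0.0383 in cKO and 0.882 ± 0.00923 in WT (SD, n = 2 each; exact two-sided permutation p = 0.333). Most of that gap lay in Rps2. With Rps2 left out, the ratio was 0.669 and 0.662 in cKO libraries and 0.704 and 0.674 in WT libraries. The groups still did not overlap, and the difference was -0.0235 in place of -0.105.

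**Figure D2:**
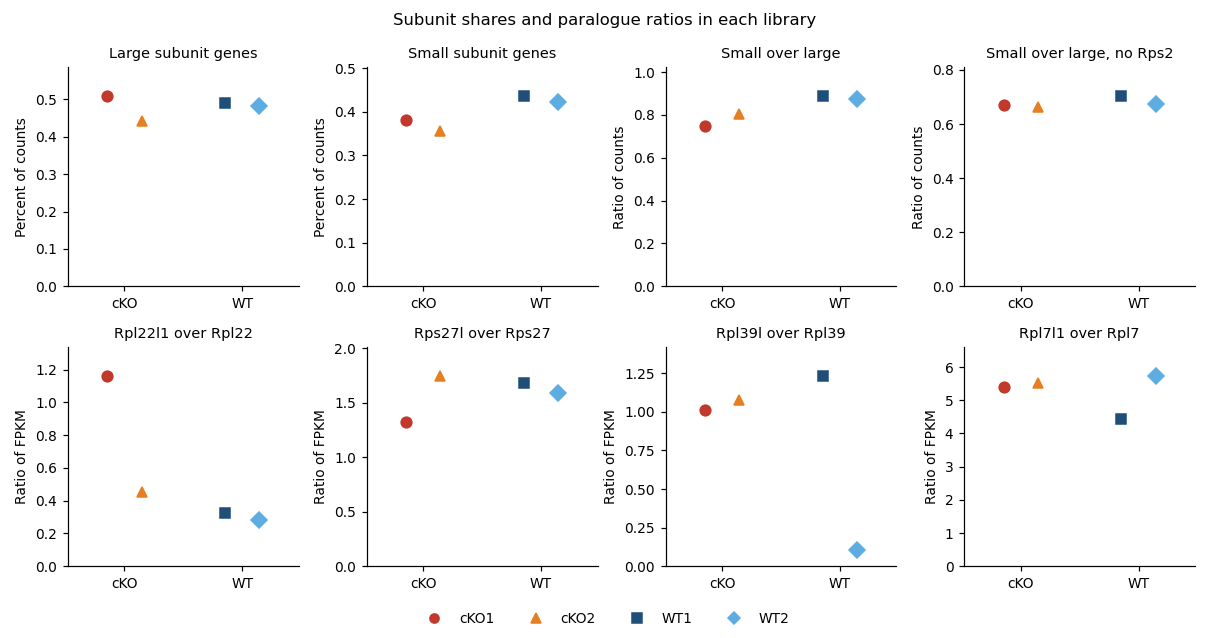
Share of all counts in large and small subunit genes, the ratio of small to large subunit counts with and without Rps2, and FPKM ratios of 4 paralogues over their partners, 1 point for each library, cKO left and WT right, axes starting at 0. The small subunit share, with Rps2 counted in it, and Rpl22l1 over Rpl22 separate the groups. The ratio of small to large subunit counts also separates them, narrowly so without Rps2. The large subunit share and the other paralogue ratios overlap.

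The main comparison asked which genes differ between cKO and WT microglia. Of the 78 genes, 77 had counts, all but Rpl3l, and 75 passed the filter on low counts, all but Rpl13a and Rpl24. With edgeR's quasi-likelihood test and Benjamini-Hochberg adjustment over 13086 genes, 0 of the 75 passed an adjusted p under 0.05, as did 0% of all genes tested. DESeq2 called 0 ribosomal protein genes, against 0.387% of all genes with an adjusted p. At an unadjusted p under 0.05, edgeR had 1 of 75 (Rps2), against 4.65% of all genes tested. The median log2 fold change, cKO over WT, was -0.046 for the 75 genes and -0.027 for all genes. Of the 75, 32 were fitted higher in cKO, which is 42.7% against 48.2% of all genes.

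In 8 of the 75 genes both cKO libraries lay above both WT libraries, against 15.8% of all genes, and in 16 both lay below, against 20.1%. Either way it was 32% of the ribosomal protein genes and 35.9% of all genes tested. Among small subunit genes 9 of 31 lay below and 3 above, and among large subunit genes 7 of 44 lay below and 5 above. The median log2 fold change was -0.083 for the small and -0.033 for the large subunit. The difference between subunits was not tested.

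**Figure D3:**
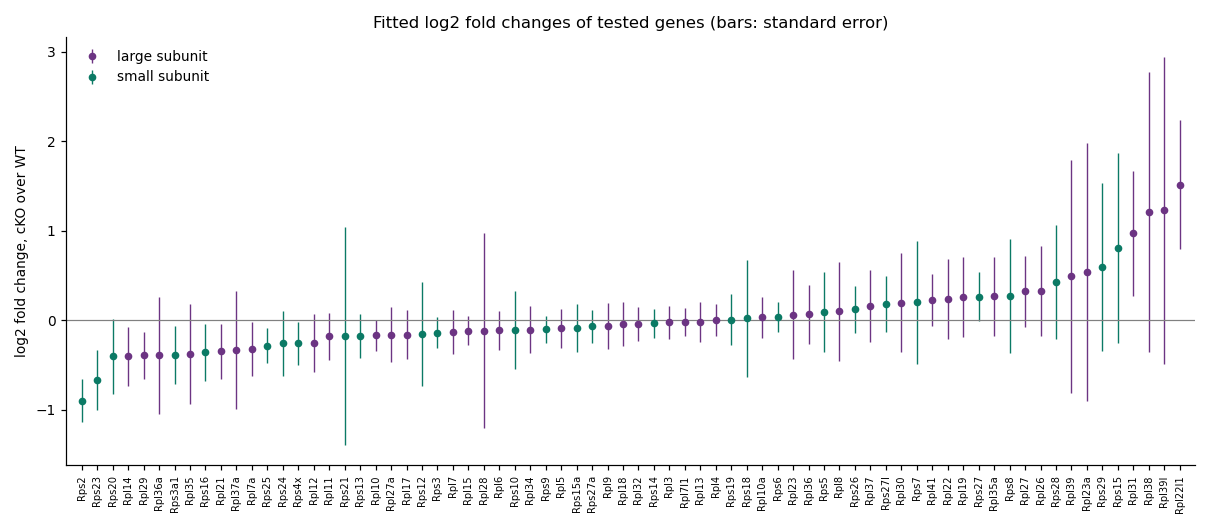
Fitted log2 fold change, cKO over WT, of 72 of the 75 tested genes in rising order, with the standard error as a bar and the subunit as colour. Values run from -0.90 for Rps2 to 1.51 for Rpl22l1, most lie within 0.5 of 0, and genes with few counts, such as Rpl39l and Rpl38, carry wide bars.

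Rps2, a small subunit protein near the mRNA entry channel (ENSMUSG00000044533, chromosome 17, 24718116 to 24721929, plus strand, GRCm38), had the smallest p of all 75. It had 409 and 613 CPM in cKO libraries, against 916 and 989.9 CPM in WT libraries. Both cKO values lay below both WT values, and the gap between the groups exceeded the spread within either. The means were 511 ± 144 CPM in cKO and 953 ± 52.2 CPM in WT (SD, n = 2 each), with a log2 fold change of -0.90 ± 0.24 (SE), an unadjusted p of 0.0146 and an adjusted p of 1 by edgeR, and an adjusted p of 0.106 by DESeq2. Leaving out each library in turn gave -1.22 to -0.64. Rps2 is also among the genes with the most copies: 79% of its 50-base stretches occur in other transcripts, 71 annotated pseudogenes share some of them, and 7.32% of its exon length overlaps another gene on the same strand. How these counts were assigned is not given, so the value is uncertain in that respect.

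Other small subunit genes were lower in both cKO libraries without passing a threshold. Rps23, a protein of the decoding centre, had 56.5 and 35.1 CPM in cKO libraries, against 68.7 and 76.9 CPM in WT libraries. Rps16, whose protein reaches towards the decoding site, had 36.1 and 29.9 CPM in cKO libraries, against 45.9 and 38.8 CPM in WT libraries. Rps25, which is known from internal initiation on viral RNAs, had 127 and 107.5 CPM in cKO libraries, against 145 and 141 CPM in WT libraries. In each the groups did not overlap, and replicate 2 was the lower of the cKO libraries. Their log2 fold changes were -0.67 for Rps23, -0.36 for Rps16 and -0.28 for Rps25, with unadjusted p-values of 0.105, 0.309 and 0.218 by edgeR.

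Of the large subunit, Rpl29 had 116 and 78.5 CPM in cKO libraries, against 132 and 124 CPM in WT libraries, the groups did not overlap, and its log2 fold change was -0.39. The cKO values of Rpl21 and Rpl12 also lay below both WT values. Their log2 fold changes were -0.35 and -0.25. Rpl29 and Rpl21 share stretches with 81 pseudogenes each.

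Rpl22l1 was the gene with the smallest p among those higher in cKO. It encodes a paralogue of Rpl22, and mouse work has shown that RPL22 protein holds Rpl22l1 mRNA low. Rpl22l1 (ENSMUSG00000039221, chromosome 3, 28805436 to 28807424, plus strand, GRCm38) had 13.7 and 8.52 CPM in cKO libraries, against 3.69 and 4.09 CPM in WT libraries, from 231 and 128 counts against 58 and 60 counts. Both cKO libraries were above both WT libraries, and cKO replicate 1 was the highest. The log2 fold change was 1.51 ± 0.72 (SE), with an unadjusted p of 0.0933 and an adjusted p of 1 by edgeR, and it ranged from 1.13 to 1.82 when each library was left out. Its mRNA shares 61.6% of its 50-base stretches with other genes.

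**Figure D4:**
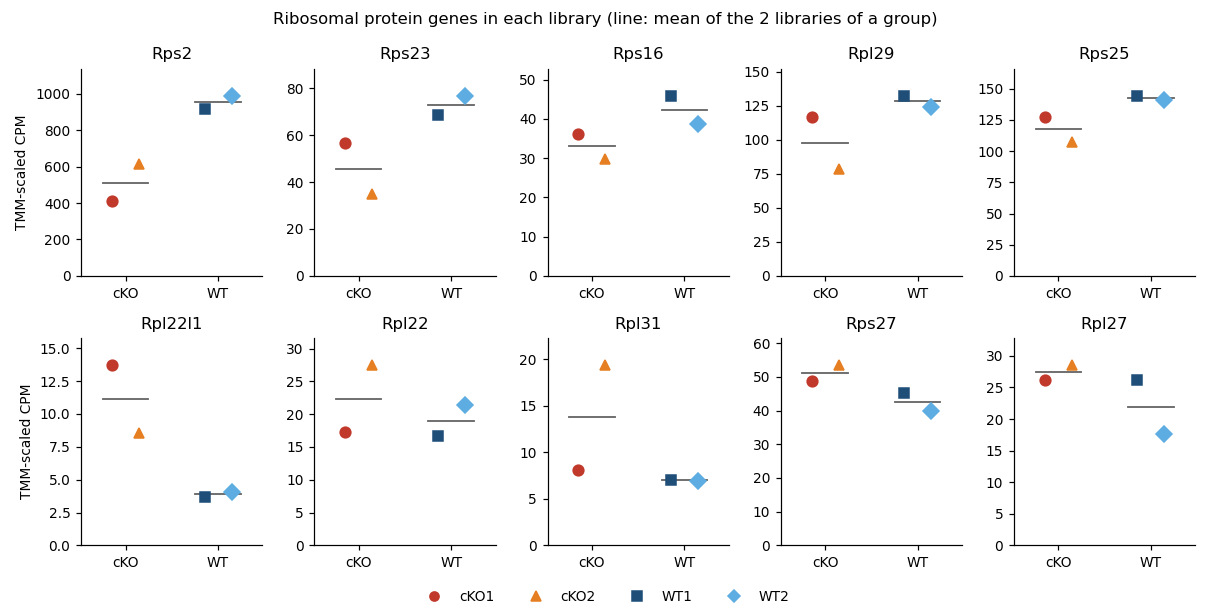
TMM-scaled CPM of 10 ribosomal protein genes in each library, cKO left and WT right, with a line at the mean of the 2 libraries of a group and axes starting at 0. Rps2, Rps23, Rps16, Rpl29 and Rps25 lie lower and Rpl22l1, Rpl31, Rps27 and Rpl27 higher in both cKO libraries, while Rpl22 overlaps.

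Rpl22 itself had 17.3 and 27.5 CPM in cKO libraries and 16.7 and 21.3 CPM in WT libraries, and the groups overlapped. By FPKM, Rpl22l1 stood at 1.16 and 0.454 times Rpl22 in cKO libraries and at 0.324 and 0.281 times in WT libraries. The lengths that these FPKM imply were 1989 bases for Rpl22l1 and 2911 for Rpl22, against main mRNAs of 525 and 474 bases. The size of the FPKM ratio thus depends on the length used, and cKO replicate 1 had 231 counts of Rpl22l1 and 291 of Rpl22. The log2 ratio of Rpl22l1 over Rpl22 counts was -0.33 and -1.69 in cKO libraries and -2.17 and -2.37 in WT libraries. The difference was 1.26 (exact two-sided permutation p = 0.333). Without cKO replicate 1 the difference was 0.58, and without cKO replicate 2 it was 1.94, so its size rests on which cKO library is kept.

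For the other paralogue pairs, the ratio of the 2 genes overlapped between groups. Rps27l, a p53 target gene, had 62.3 and 92 FPKM in cKO libraries and 72 and 59.7 FPKM in WT libraries, which is 1.33 and 1.75 times Rps27 in cKO libraries and 1.68 and 1.59 times in WT libraries. Rpl7l1, a protein of ribosome assembly despite its name, had 126 and 123 FPKM in cKO libraries and 116 and 129 FPKM in WT libraries. It stood at 5.39 and 5.52 times the FPKM of Rpl7 in cKO libraries and at 4.44 and 5.73 times in WT libraries. The FPKM imply lengths of 2606 bases for Rpl7l1 and 2687 for Rpl7, against main mRNAs of 2606 and 1163 bases. Rpl39l, known mainly from the testis, had 17 and 10 counts in cKO libraries and 10 and 1 counts in WT libraries, so its ratio to Rpl39 rests on few reads. Outside the rule, Rps4l, which the deposited table lists as a pseudogene, had 0.374 and 0.175 times the FPKM of Rps4x in cKO libraries and 0.318 and 0.268 times in WT libraries. Rpl36al had 0.18 and 0 times the FPKM of Rpl36a in cKO libraries and 0.167 and 0.072 times in WT libraries.

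Among the other genes above in both cKO libraries, Rpl31 was high in cKO replicate 2 alone. Rpl31, at the exit of the peptide tunnel, had 8.14 and 19.4 CPM in cKO libraries, against 7.07 and 6.95 CPM in WT libraries. Replicate 1 of cKO was close to the WT libraries. The log2 fold change was 0.97 ± 0.69 (SE), with an unadjusted p of 0.224 by edgeR. Rps27 had 48.7 and 53.5 CPM in cKO libraries, against 45.2 and 39.9 CPM in WT libraries, Rpl27 had 26.3 and 28.5 against 26.2 and 17.6 CPM, and Rpl30 had 12 and 10.8 against 10.1 and 9.74 CPM. For these 3 the log2 fold changes were 0.27, 0.33 and 0.20.

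The fitted direction went with level. Of 33 genes that averaged 50 CPM or more, 27 were fitted lower in cKO, 7 lay below in both cKO libraries and 0 above, and the median log2 fold change was -0.099. Of all 3507 genes at that level, 1804 were fitted lower, 19% lay below and 17.7% above, with a median of -0.011. Of 42 tested genes under 50 CPM, 26 were fitted higher in cKO, 8 lay above and 9 below, with a median of 0.094, against -0.038 for all 9579 genes under 50 CPM. Leaving out each library in turn gave medians of -0.18 to -0.026 for the genes at or above 50 CPM and of -0.12 to 0.23 for those under it.

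The cKO libraries differed from each other along the same axis. In 17 of 18 genes that averaged 100 CPM or more, replicate 2 was the lower cKO library, Rps2 being the exception, with a median log2 ratio of replicate 2 over replicate 1 of -0.26. Of all 1827 genes at that level, 44% were higher in replicate 2, with a median of -0.068. In 7 of 9 tested genes under 5 CPM, replicate 2 was the higher cKO library, with a median of 0.82. All 3665 tested genes under 5 CPM had a median of -0.45. Rpl24 and Rpl13a, which the filter on low counts removed, went the other way, at -1.70 and -1.32. Over the 75 genes, the log2 ratio of the cKO libraries had a Spearman rho of -0.39 with mean CPM, of 0.42 with mRNA GC content and of -0.34 with mRNA length. For WT replicate 1 over replicate 2 these were -0.23, 0.026 and -0.11.

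**Figure D5:**
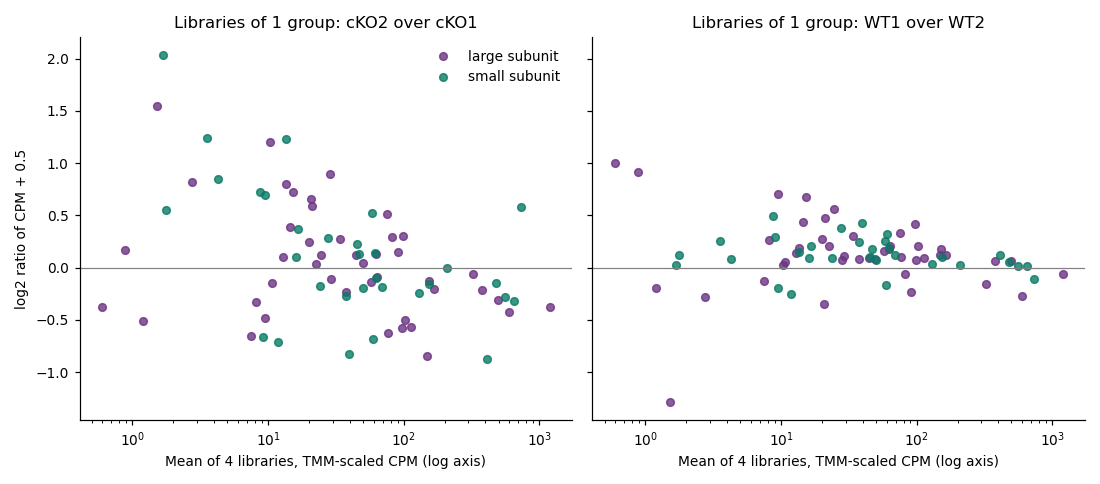
log2 ratio of CPM + 0.5 between the libraries of 1 group, cKO replicate 2 over replicate 1 (left) and WT replicate 1 over replicate 2 (right), against the mean CPM of the 4 libraries on a log axis, 1 point for each of the 75 tested genes. The cKO ratios go down with level, from a median of 0.82 under 5 CPM to -0.26 at 100 CPM and above, and the WT ratios lie mostly just above 0.

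The cKO replicate 2 library was the lowest of the 4 for 33 of the 75 genes and the highest for 28, against 39.1% and 32.1% of all genes tested. WT replicate 1 was the highest for 32 and the lowest for 5, which is 42.7% and 6.67% of the ribosomal protein genes, against 22.2% and 18% of all genes. Without cKO replicate 1, edgeR called 748 genes, 5.72% of those tested, and 1 ribosomal protein gene, Rps3a1, at a log2 fold change of -0.90 and an adjusted p of 0.0475. This fit assumes that the lone cKO library varies like the WT libraries. Rps3a1 had 461 and 251 CPM in cKO libraries, against 486 and 447 CPM in WT libraries, so its lower level was found in replicate 2 alone. Without cKO replicate 2, edgeR called 0 ribosomal protein genes.

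Genes known for roles outside the ribosome had overlapping groups. Rpl5 and Rpl11, which with 5S rRNA can bind and inhibit the p53 ligase MDM2, are examples. Rpl5 had 83.3 and 92.6 CPM in cKO libraries and 86.2 and 101 CPM in WT libraries. Rpl11 had 113 and 79.8 CPM in cKO libraries and 117 and 102 CPM in WT libraries. Rps3, also known from DNA repair, had 684 and 550 CPM in cKO libraries and 684 and 676 CPM in WT libraries. Rpl38, required in mouse embryos for translation of Hox mRNAs, had 0.832 and 3.39 CPM in cKO libraries and 0.318 and 1.5 CPM in WT libraries, with replicate 2 the higher in both groups. The 18 genes mutated in Diamond-Blackfan anaemia had 10 fitted higher and 8 lower (median log2 fold change 0.064).

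Of the X-linked genes, Rps4x had 67.3 and 59.2 CPM in cKO libraries, against 78.7 and 72.5 CPM in WT libraries, and Rpl10 had 519.9 and 419 against 539.8 and 516 CPM. Rpl36a had 9.68 and 6.79 CPM in cKO libraries, against 13.5 and 8.11 CPM in WT libraries. Over these and Rpl39, the median log2 ratio of cKO replicate 2, the library with Xist, over replicate 1 was -0.40. Only Rps4x had groups that did not overlap.

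In the authors' deposited tables, which each set 1 cKO library against 1 WT library, 62 of 77 ribosomal protein genes were called in none. Genes called there changed at least 2-fold, but such a change was not enough for a call. Rpl13a was not called in the authors' deposited tables for cKO replicate 2 against WT replicate 2, at a log2 fold change of -1.19. Called higher in the authors' deposited tables were 4 of 77 for cKO replicate 1 against WT replicate 1 (20.3% of all genes in that table), 5 against WT replicate 2 (17.2%), 5 for cKO replicate 2 against WT replicate 1 (18.1%) and 9 against WT replicate 2 (17.1%). Called lower in the authors' deposited tables, in the same order, were 2, 1, 1 and 1 of 77, against 15.8%, 17.6%, 28.7% and 31.7% of all genes. The tables share libraries and are not independent of each other. Each of the 4 tables, as the authors' deposited tables give it, called Rpl22l1 higher, with log2 fold changes of 1.91 and 1.78 for cKO replicate 1 and of 1.26 and 1.13 for cKO replicate 2. Rps2 was called lower in the authors' deposited tables with cKO replicate 1, at -1.14 and -1.24, and was not called with replicate 2, at -0.53 and -0.62.

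Genes that work with the ribosome gave no call in edgeR either. Of 8 tested ribosomal proteins and ribosome-bound factors that the symbol rule leaves out, 7 were fitted lower in cKO (median log2 fold change -0.14), and Rplp1, a stalk protein, had 108 and 88.5 CPM in cKO libraries, against 138 and 109.6 CPM in WT libraries. The other mRNAs known for a TOP motif had 13 of 17 fitted lower, with a median of -0.068. Among them Eif3f, a subunit of the initiation factor eIF3, had 16.7 and 14.2 CPM in cKO libraries, against 34.1 and 37.8 CPM in WT libraries, with a log2 fold change of -1.22 and an unadjusted p of 0.0211 by edgeR. The elongation factor gene Eef1a1 had 7142 and 3344 CPM in cKO libraries and 5981 and 6228 CPM in WT libraries, again with replicate 2 the low library.

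Translation factors had 13 of 25 fitted higher, with a median of 0.0071. Both cKO libraries lay above in 5 (20%) and below in 7 (28%), against 15.8% and 20.1% of all genes tested. Eif4e, the cap-binding protein, had 158 and 173 CPM in cKO libraries, against 123 and 118 CPM in WT libraries. Ribosome assembly factors had 19 of 37 fitted higher, with a median of 0.0045. In that list Nolc1, a nucleolar chaperone of small nucleolar particles, had 83.8 and 133 CPM in cKO libraries, against 56.9 and 60.1 CPM in WT libraries, and Gnl3, a nucleolar GTPase, had 38.3 and 42.5 CPM in cKO libraries, against 90.4 and 50.8 CPM in WT libraries. Of the mTOR pathway, 7 of 16 were fitted higher, with a median of -0.029. Larp1, which binds TOP mRNAs, had 44.7 and 42.7 CPM in cKO libraries, against 22.2 and 34.1 CPM in WT libraries, and its relative Larp4 had 68 and 61.7 against 123.8 and 108 CPM.

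Of the p53 and nucleolar stress list, 12 of 14 had positive fitted log2 fold changes (median 0.29), and 0 passed the adjusted threshold with edgeR or DESeq2. Mdm2 had 139 and 102 CPM in cKO libraries, against 76.1 and 87.8 CPM in WT libraries. Cdkn1a, the cell cycle inhibitor p21, had 132 and 123 CPM in cKO libraries, against 87.9 and 93.5 CPM in WT libraries. Pmaip1, a pro-apoptotic p53 target, had 145 and 163 CPM in cKO libraries, against 80.8 and 111 CPM in WT libraries. In these 3 genes, Aen and Gdf15 the cKO libraries lay above, which is 5 of 14 against 15.8% of all genes tested. In 2 of 14, Bax and Zmat3, they lay below, against 20.1% of all genes. Bax, another pro-apoptotic p53 target, had 91 and 83.4 CPM in cKO libraries, against 115 and 110.4 CPM in WT libraries, and Zmat3 had 5.52 and 7.72 against 10.2 and 10.6 CPM. At an unadjusted p under 0.05 by edgeR there were 1 of 14, Pmaip1, against 4.65% of all genes.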

How the data were processed

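Total RNA of isolated microglia was sequenced in 4 libraries, per the labels. TopHat2 2.0.12 with Bowtie2 2.2.3, HTSeq 0.6.0 and the build mm9 are listed in the submitters' processing notes, while 92.1% of 21008 gene positions match GENCODE M21, so positions are given as GRCm38. The authors deposited FPKM values and 4 pairwise tables with read counts, a normalized signal, a fold change as a ratio and as log2, and p-values, per the file headers, and the sources used here give neither their test nor their counting settings. Counts were joined for 18459 genes, and cells missing from both tables of a library (4315 of 73836) were recovered from FPKM and came out whole in 100% at a tolerance of 1e-06. The other 2585 genes of the FPKM table had no counts.

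The test was edgeR 4.0.16 (TMM, filterByExpr, quasi-likelihood F test, Benjamini-Hochberg adjusted p under 0.05) in R 4.3.3, and CPM are TMM-scaled. Standard errors were derived from the F statistic. Single values used an exact two-sided permutation test over libraries. Alternatives were DESeq2 1.42.0, other scalings and filters, limma 3.58.1 on log2 FPKM (pseudocount 1, 0.5 or 0.1), a replicate block and leaving out each library. The scripts were tested on simulated data.

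Replicates of a group differed beyond sampling noise, with a chi-square per degree of freedom over genes of 117 in cKO and 29.3 in WT. Genes named are Lag3, Cx3cr1, up to 10 per direction with the smallest p at 5 CPM or more whose groups did not overlap, the 5 highest and 5 lowest by FPKM, paralogue pairs, and the smallest p of each list. Eef1a1, Aen, Gdf15, Bax, Zmat3, Ngp, Cxcr2, Ccr2, Ly6g, Elane and Mpo were named outside the rule, after their values were seen, and some genes that the rule names are not reported here. The genes, lists and tests were chosen with earlier results of these data known. Shared sequence was counted as 50-base stretches of the main GENCODE mRNA found in transcripts of other genes.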

Additional observations from a re-analysis of the deposited data

How the results depend on the processing

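The count of genes called by edgeR, 0, and that of ribosomal protein genes, 0, stayed at 0 under the other scalings and filters, limma on log2 FPKM (pseudocount 1, 0.5 or 0.1) and the replicate block. DESeq2 called 52 genes. Leaving out each library gave 0 to 748 genes and 0 to 1 ribosomal protein genes (Rps3a1, without cKO replicate 1); the cause was not tested. Deviations of same-numbered libraries had a correlation of r = -0.017 over all genes and of 0.15 over the 75 ribosomal protein genes. With 2 libraries in a group this cannot show whether the replicate numbers stand for a pairing. With the replicate block the median log2 fold change of the ribosomal protein genes was -0.044. This median ran from -0.064 to -0.00215 under the other alternatives and from -0.085 to 0.00026 when each library was left out, against a median of all genes of -0.15 to -0.0071. The log2 ratio of the summed share of counts was -0.12, from -0.20 to -0.042 without each library, and -0.054 without Rps2, an alternative added after seeing the data. The log2 ratio of Rpl22l1 over Rpl22 was 0.58 to 1.94 without each library.

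Log2 fold changes close to 0 changed sign with the setting. Rpl4 was -0.0044 with TMM factors estimated without the ribosomal protein genes, -0.00037 without the filter and -0.0068 with the replicate block. Rpl3 was 0.019 with library totals only and 0.017, 0.017 and 0.017 in limma with pseudocounts of 0.1, 0.5 and 1. Rpl7l1 was 0.023 with library totals and 0.024, 0.023 and 0.023 in limma. Leaving out each library spanned 0 for Rpl4 (-0.20 to 0.18), Rps6 (-0.11 to 0.17), Rpl22 (-0.14 to 0.53), Rps27l (-0.11 to 0.42), Rpl3 (-0.13 to 0.075), Rpl7l1 (-0.11 to 0.055), Rps4l (-1.10 to 0.18), Rpl36al (-7.15 to 0.57), Rpl36a (-0.72 to 0.015), Rpl5 (-0.21 to 0.022), Rpl11 (-0.45 to 0.052), Rps3 (-0.31 to 0.011), Rpl38 (-0.12 to 2.69), Uty (-12.21 to 0.027) and Eif2s3y (-12.96 to 0.15). Depth limits the low genes: 10 ribosomal protein genes had under 100 counts in every library.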

Other observations

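The ribosome of mitochondria is built from a separate set of nuclear genes, most of which were fitted higher in cKO. Of 76 tested mitochondrial ribosomal protein genes, 47 were fitted higher and 29 lower, with a median log2 fold change of 0.10 against -0.027 for all genes, and 0 passed the adjusted threshold with edgeR, 0 having an unadjusted p under 0.05 and DESeq2 calling 0. Both cKO libraries lay above both WT libraries in 8 and below in 12, which is 10.5% and 15.8% of the 76, against 15.8% and 20.1% of all genes. Mrpl10, a large subunit stalk protein, had 86.4 and 117 CPM in cKO libraries, against 67.1 and 60.2 CPM in WT libraries. Mrpl1 had 39 and 43 CPM in cKO libraries, against 28.8 and 23.1 CPM in WT libraries, and Mrps10 had 28.6 and 61.3 against 18.3 and 27 CPM. In these 3 genes the groups did not overlap. Together the mitochondrial ribosomal protein genes summed to 2307 and 2608 CPM in cKO libraries and to 2314 and 2296 CPM in WT libraries.

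Annotated pseudogenes named after ribosomal proteins held 0.0152% and 0.0159% of counts in cKO libraries and 0.0165% and 0.0154% in WT libraries. Of 104 such pseudogenes 36 were tested, and 16 were fitted higher and 20 lower, with a median log2 fold change of -0.074. Rps27rt, a copy of Rps27 outside the symbol rule, had 6.53 and 10.1 CPM in cKO libraries, against 5.22 and 3.95 CPM in WT libraries.

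Over the 75 tested ribosomal protein genes, log2 CPM of any 2 libraries had a Pearson r of 0.971 to 0.993, against 0.837 to 0.943 over all genes tested, which describes genes of the same 4 libraries. The lowest values involved cKO replicate 2 in both sets.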
